A study of Mus musculus with 4 samples.

Results

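Histones are the proteins around which DNA is wound, and their genes fall into a replication-dependent and a variant class. The members of both classes were taken by gene symbol from a table of 16442 mouse genes. Symbols beginning with H1f, H2ac, H2bc, H3c or H4c followed by a number gave 48 replication-dependent genes. H1f0 and H1f10 were set apart as variants and joined by H2az1, H2az2, H2ax, H3f3a, H3f3b and Macroh2a1, which gave 8 variants and 56 histone genes in all. The table holds ribosome footprints from leukaemia stem cells taken from mouse bone marrow (C57BL/6), and, through the ratio of footprints to RNA, the level of the input RNA kept from each lysate. Footprints are the stretches of mRNA that ribosomes shield from nuclease. There were 2 libraries labelled KO, for a loss of Rreb1, a zinc finger transcription factor, and 2 libraries labelled WT. The cells came from leukaemic animals in both groups. The sources used here do not say how the leukaemia was started, how the allele was removed, or how old the animals were. For KO-labelled library 2 the genotype field names Rreb2 instead, and its title decided the group.

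Replication-dependent histone genes are made for the packaging of newly copied DNA. They lie in clusters, most lack introns, and their mRNAs are made in S phase and end in a stem-loop bound by the protein SLBP in place of a poly(A) tail. Variant histones are mostly encoded by single genes with introns, whose polyadenylated mRNAs are made through the whole cell cycle, and they replace the replication-dependent proteins at particular sites. In these data 44 of the 48 replication-dependent genes lie on chromosome 13 and 4 on chromosome 3 (GRCm38.p6, from RefSeq).

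Assigned footprint reads came to 364087 and 274183 in the KO-labelled libraries, against 878068 and 656249 in the WT libraries. Input depth differed by at most 1.12-fold. The mRNA of Rreb1 itself had 6.10 and 6.93 RPKM in the KO-labelled libraries, against 3.33 and 3.25 RPKM in the WT libraries, and its footprints were 12.9 and 8.19 RPKM, against 14.1 and 12.8 RPKM. The sources used here do not name the removed exons, so these values do not check the labels, and the libraries are called KO-labelled throughout. RPKM is reads per kilobase scaled to the assigned reads of the library, counted over the coding length for footprints and over the transcript length for RNA. Replicates were called biological by the submitters without naming the animals, so a p-value reflects only how far these libraries lie apart, which may be technical. Coding sequences within the H2A, H2B, H3 and H4 families are nearly identical, and the sources used here do not say how reads that match several copies were counted. The split of reads between copies, and with it the value of a single gene, is therefore uncertain. In RefSeq the spans of H2bc6 and Macroh2a1 also overlap another gene each, Gm33387 and Gm31485.

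In every library the replication-dependent histones carried many footprints on little measured RNA. The 41 replication-dependent genes with enough footprints to be tested had median footprint levels of 319.7 and 378 RPKM in the KO-labelled libraries, against 548 and 695 RPKM in the WT libraries. The median over all 6390 genes tested was 35.6 and 38.7 RPKM, against 38.1 and 39.3 RPKM. Their median RNA level was 8.15 and 9.06 RPKM in the KO-labelled libraries, against 3.86 and 3.64 RPKM in the WT libraries, below the median of all tested genes, which was 12.7 and 12.9 RPKM, against 12.9 and 12.95 RPKM. The 5 variants tested were H1f0, H2ax, H2az2, H3f3b and Macroh2a1. Their median footprint level was 263 and 323 RPKM in the KO-labelled libraries, against 269 and 322 RPKM in the WT libraries, and their median RNA level 103 and 103 RPKM, against 195 and 197 RPKM. In each of the 4 libraries the median replication-dependent gene stood above the median variant in footprints and below it in RNA.

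**Figure D1:**
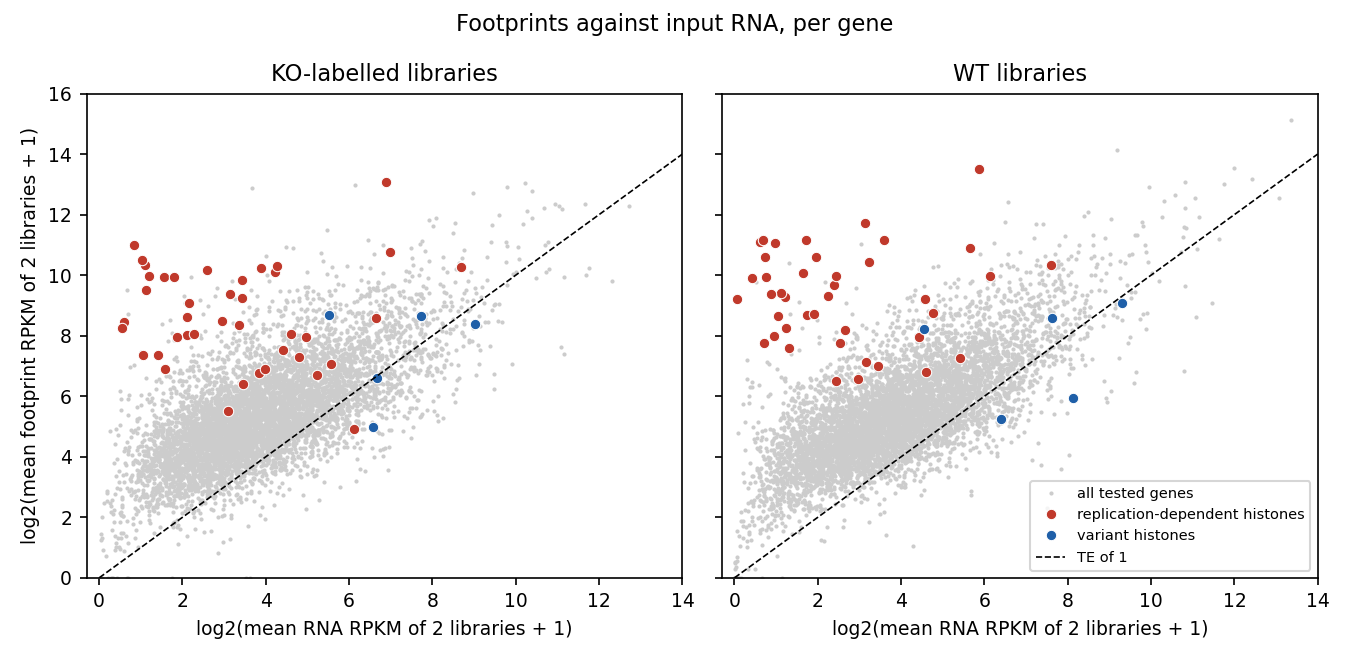
Footprint level (y axis, log2 of the mean RPKM of 2 libraries plus 1) against input RNA level (x axis, same scale) for every tested gene in the KO-labelled libraries (left) and the WT libraries (right). Most replication-dependent histones (red) lie at the upper left of the 6390 tested genes (grey), with H1f4, H2ac8, H2bc8 and H2bc11 inside the cloud. Of the 5 variants (blue) Macroh2a1 lies well above the dashed line of equal footprint and RNA values, H1f0 below it and the other 3 nearer to it.

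The translational efficiency (TE), the ratio of the footprint value to the RNA value of the same library with 1 RPKM added to both, summarises this. Averaged over the 4 libraries it had a median of 104 over the 41 replication-dependent genes, 0.761 over the 5 variants and 2.93 over all tested genes. Of the 50 tested genes with the highest TE, 27 were replication-dependent histones. H1f3, which encodes linker histone H1.3, had the highest mean TE of all histones, at 1265, followed by H2ac7 at 1039, H3c7 at 823 and H4c12 at 763. The TE of 37 of the 41 genes lay above percentile 90 of all tested genes, which was at a TE of 9.10. H1f4, H2ac8, H2bc8 and H2bc11 were the exceptions, with mean TE values of 7.18, 4.83, 3.40 and 2.496. Among the variants Macroh2a1 stood highest, with a mean TE of 11.1, and H2ax, H3f3b, H2az2 and H1f0 all lay below the median of all tested genes.

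These TE levels rest on few RNA reads. The median replication-dependent gene had 71 and 85 input reads in the KO-labelled libraries, against 49 and 36 in the WT libraries, and 4 and 3 of the 41 genes, against 10 and 10, had under 1 RPKM of RNA. The length over which RNA was counted was recovered from the values for all 48 genes and exceeded the RefSeq gene length by more than 1.5 times for 12 of them, H1f3 among them. The sources used here do not say whether input RNA was selected for poly(A) tails, and the part of any selection in the low RNA level of tailless mRNAs was not tested.

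Summed over the class, footprints and RNA differed in opposite directions between the groups. All 48 replication-dependent genes together took 1.10% (95% Wilson interval 1.06 to 1.13) and 1.5% (1.45 to 1.54) of footprint reads in the KO-labelled libraries, against 1.67% (1.65 to 1.70) and 2.02% (1.99 to 2.06) in the WT libraries. Their summed RNA was 1058 and 1437 RPKM in the KO-labelled libraries, against 658 and 608 RPKM in the WT libraries. Both KO-labelled libraries were below both WT libraries in the first measure and above both in the second, but the footprint shares of KO-labelled library 2 and WT library 1 lay closer to each other than either lay to its own replicate. The intervals cover counting error only. The 8 variants took 0.0942% (0.0848 to 0.105) and 0.0843% (0.0741 to 0.0958) of footprint reads in the KO-labelled libraries, against 0.0735% (0.0680 to 0.0793) and 0.0855% (0.0787 to 0.0929) in the WT libraries. Summed variant RNA was 2543 and 2136 RPKM in the KO-labelled libraries, against 2095 and 2069 RPKM in the WT libraries. Of this H2az1 alone, which was not tested, made up 1238 and 955 RPKM, against 600.3 and 617 RPKM, so the sum depends strongly on this gene. The variant shares overlapped between the groups in footprints.

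**Figure D2:**
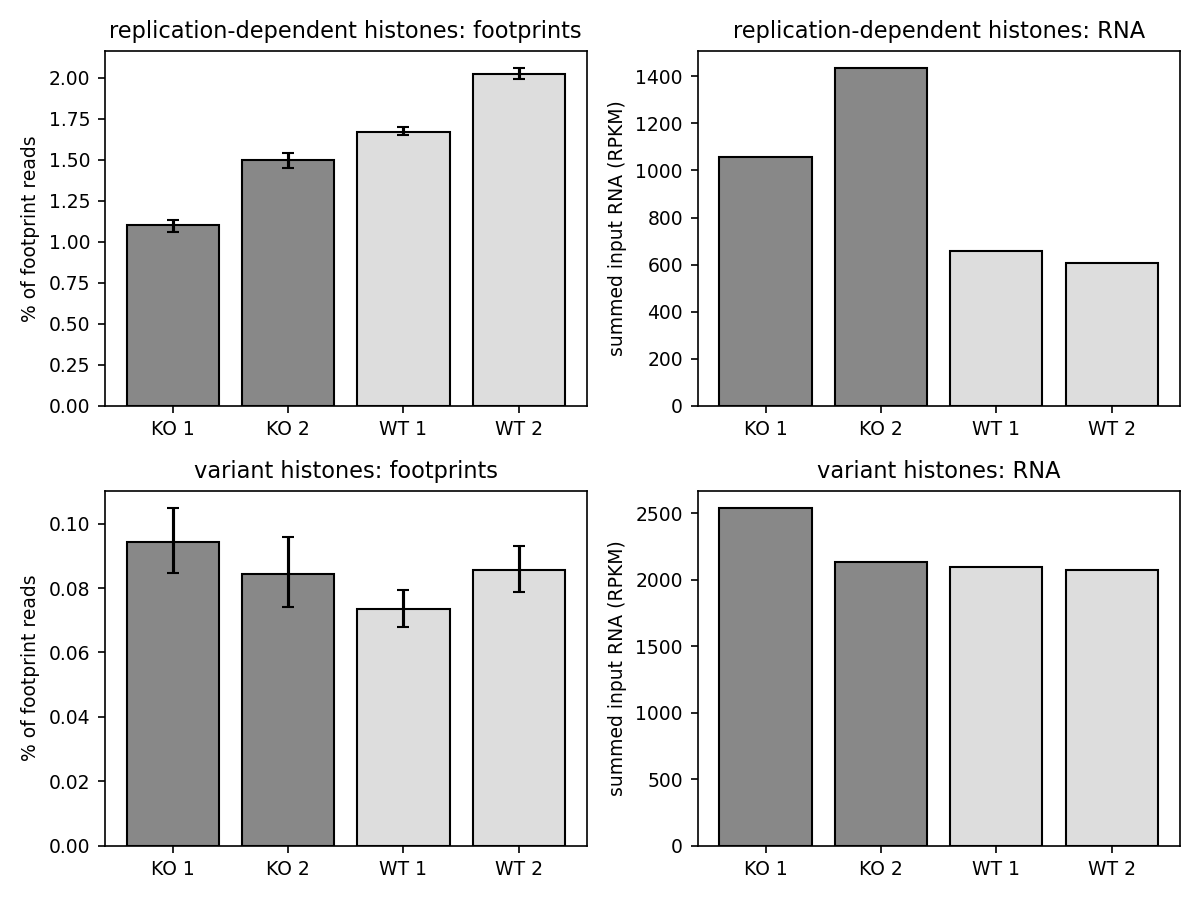
Share of footprint reads in percent (left, bars with 95% Wilson intervals) and summed input RNA in RPKM (right) of the 48 replication-dependent genes (top) and the 8 variants (bottom) in each library, with KO-labelled libraries in dark grey and WT libraries in light grey. The replication-dependent class is lower in footprints and higher in RNA in both KO-labelled libraries than in both WT libraries.

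By family, the footprint shares were apart between the groups in 3 of the 5. H4 genes took 0.438% and 0.415% of footprint reads in the KO-labelled libraries, against 0.653% and 0.765% in the WT libraries. H2A genes took 0.198% and 0.273% in the KO-labelled libraries, against 0.309% and 0.421% in the WT libraries. H3 genes took 0.121% and 0.208% in the KO-labelled libraries, against 0.213% and 0.236% in the WT libraries. In these 3 families both KO-labelled libraries lay below both WT libraries, with the H3 share of KO-labelled library 2 close to that of WT library 1. The replication-dependent H1 genes took 0.240% and 0.461% in the KO-labelled libraries, against 0.369% and 0.456% in the WT libraries. H2B genes took 0.101% and 0.139% in the KO-labelled libraries, against 0.129% and 0.143% in the WT libraries. The groups overlapped in H1 and in H2B. Summed RNA was higher in both KO-labelled libraries in all 5 families, for example 507 and 715 RPKM, against 311 and 282 RPKM, for H2A.

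At the RNA level most replication-dependent histones rose. Of the 41 tested, 29 were higher in the KO-labelled libraries and 0 lower (limma over all tested genes, adjusted p under 0.05), where 33.1% of all tested genes were called higher and 27.7% lower. The median log2 difference of the 41 genes was 0.63, against 0.04 over all tested genes, and 32 of them (78.0%) had both KO-labelled libraries above both WT libraries, where 44.4% of all tested genes did. The log2 difference is that of RPKM plus 1 and understates changes at low RNA. Over the 29 genes with at least 1 RPKM of RNA in every library the median was 0.98, and over the other 12 it was 0.36. In a bulk lysate more cells in S phase and more histone RNA per cell cannot be told apart.

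Linker histones of the H1 family bind the DNA that enters and leaves the nucleosome. H1f5 had 101 and 148 RPKM of RNA in the KO-labelled libraries, against 48.6 and 50.02 RPKM in the WT libraries (log2 difference 1.30 ± 0.16 SE, adjusted p = 0.000355). H1f4 had 34.1 and 58.6 RPKM in the KO-labelled libraries, against 21.7 and 19.7 RPKM in the WT libraries (1.08 ± 0.21, adjusted p = 0.00405). Both genes rose with no overlap between the groups. They were 2 of the 5 H1 genes tested (40.0%, where 33.1% of all tested genes rose). H1f1, H1f2 and H1f3 did not pass, with log2 differences from 0.18 to 0.58. H1f3, whose footprints were the third highest of the class, had only 0.600 and 0.980 RPKM of RNA in the KO-labelled libraries, against 0.563 and 0.504 RPKM in the WT libraries.

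H2A proteins pair with H2B at the faces of the nucleosome. Of the 10 H2A genes tested 9 rose, where 33.1% of all tested genes did. H2ac8, the most abundant replication-dependent histone RNA measured, had 346 and 476 RPKM in the KO-labelled libraries, against 204 and 182 RPKM in the WT libraries (log2 difference 1.07 ± 0.14 SE, adjusted p = 0.000604). H2ac20, which lies in the small cluster on chromosome 3, had 13.4 and 27.1 RPKM in the KO-labelled libraries, against 5.83 and 4.77 RPKM in the WT libraries (1.68 ± 0.27, adjusted p = 0.00156). KO-labelled library 2 was the higher of its pair in both genes. H2ac11 had 89.0 and 108 RPKM in the KO-labelled libraries, against 67.9 and 69.6 RPKM in the WT libraries. H2ac4 had 14.3 and 20.8 RPKM in the KO-labelled libraries, against 9.62 and 7.10 RPKM in the WT libraries. H2ac6 had 10.7 and 9.06 RPKM in the KO-labelled libraries, against 4.30 and 4.22 RPKM in the WT libraries. In each of these the groups were apart. H2ac13 had 8.15 and 10.5 RPKM in the KO-labelled libraries, against 3.86 and 3.64 RPKM in the WT libraries. H2ac15 had 9.12 and 5.97 RPKM in the KO-labelled libraries, against 4.39 and 4.48 RPKM in the WT libraries. H2ac12 had 2.55 and 4.35 RPKM in the KO-labelled libraries, against 1.94 and 0.680 RPKM in the WT libraries. The groups were again apart, with a wide spread inside both groups for H2ac12. H2ac7 had 1.04 and 1.23 RPKM in the KO-labelled libraries, against 0.731 and 0.481 RPKM in the WT libraries, from 11 and 12 input reads, against 8 and 5. H2ac10, with at most 5 input reads in a library, was the gene that did not pass.

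Among the H2B genes 7 of the 9 tested rose (77.8%, where 33.1% of all tested genes did). H2bc11 had 65.2 and 71.5 RPKM of RNA in the KO-labelled libraries, against 23.4 and 23.2 RPKM in the WT libraries (log2 difference 1.51 ± 0.07 SE, adjusted p = 3.47e-06), the smallest adjusted p among the histones. H2bc14 had 24.2 and 29.3 RPKM in the KO-labelled libraries, against 9.58 and 6.20 RPKM in the WT libraries (1.66 ± 0.18, adjusted p = 0.000202). Replicates of both genes lay close together beside the gap between the groups. H2bc15 had 10.1 and 16.6 RPKM in the KO-labelled libraries, against 7.41 and 6.21 RPKM in the WT libraries. H2bc3 had 6.95 and 6.59 RPKM in the KO-labelled libraries, against 2.06 and 2.60 RPKM in the WT libraries. H2bc7 had 2.94 and 3.69 RPKM in the KO-labelled libraries, against 1.02 and 1.07 RPKM in the WT libraries. None of these 3 overlapped between the groups. H2bc9 had 1.84 and 1.99 RPKM in the KO-labelled libraries, against 1.12 and 1.18 RPKM in the WT libraries. H2bc6 had 1.27 and 1.12 RPKM in the KO-labelled libraries, against 0.682 and 0.718 RPKM in the WT libraries. H2bc4 and H2bc8, with log2 differences of 0.03 ± 0.11 and -0.21 ± 0.18, did not pass, and H2bc8 was the single replication-dependent gene below 0.

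H3 and H4 form the central tetramer of the nucleosome. Of the 9 H3 genes tested 7 rose (77.8%, where 33.1% of all tested genes did). H3c3 had 5.86 and 9.78 RPKM of RNA in the KO-labelled libraries, against 3.15 and 1.14 RPKM in the WT libraries (log2 difference 1.53 ± 0.32 SE, adjusted p = 0.00483). H3c2 had 2.19 and 4.45 RPKM in the KO-labelled libraries, against 0.843 and 0.799 RPKM in the WT libraries (1.19 ± 0.22, adjusted p = 0.00292). The groups were apart in both, with KO-labelled library 2 the highest. H3c11 had 9.91 and 9.71 RPKM in the KO-labelled libraries, against 4.07 and 4.69 RPKM in the WT libraries. H3c8 had 10.2 and 9.75 RPKM in the KO-labelled libraries, against 5.13 and 4.47 RPKM in the WT libraries. H3c6 had 14.4 and 15.1 RPKM in the KO-labelled libraries, against 10.5 and 9.29 RPKM in the WT libraries. These 3 had close replicates in both groups. H3c10 had 1.59 and 1.71 RPKM in the KO-labelled libraries, against 0.636 and 1.21 RPKM in the WT libraries. H3c7 had 1.03 and 1.07 RPKM in the KO-labelled libraries, against 0.705 and 0.611 RPKM in the WT libraries. H3c1 and H3c4 did not pass, at 0.35 ± 0.26 and 0.35 ± 0.16.

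Of the 8 H4 genes tested 4 rose, where 33.1% of all tested genes did. H4c4 had 91.0 and 144 RPKM of RNA in the KO-labelled libraries, against 63.1 and 51.8 RPKM in the WT libraries (log2 difference 0.99 ± 0.20 SE, adjusted p = 0.00408). H4c3 had 14.8 and 21.8 RPKM in the KO-labelled libraries, against 8.10 and 7.32 RPKM in the WT libraries (1.12 ± 0.16, adjusted p = 0.000856). H4c14, on chromosome 3, had 2.36 and 2.88 RPKM in the KO-labelled libraries, against 1.57 and 1.11 RPKM in the WT libraries. The groups were apart in all 3 genes. H4c1 also passed, but from 7 and 2 input reads in the KO-labelled libraries, against 0 and 1 in the WT libraries. H4c6, H4c8, H4c11 and H4c12 did not pass, with log2 differences from 0.07 to 0.31, and H4c8 had 10.97 and 16.5 RPKM in the KO-labelled libraries, against 11.1 and 10.9 RPKM in the WT libraries.

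As most of these genes rose in RNA, the sequence just before their start sites is shown for the gene of each family with the largest RNA difference among those called (all libraries, 1 RPKM added), with H1f0, the variant that fell most, beside them. The 250 bases before each start were taken from RefSeq (GRCm38.p6), which had an entry for 48 of the 56 histone genes. Letters are in capitals where a script found, on either strand, the CCAAT box, the TATAAA box, the octamer ATTTGCAT or the AAACACA element known from H1 promoters.
H1f5 (replication-dependent H1; chr13:21780626-21780875, minus strand): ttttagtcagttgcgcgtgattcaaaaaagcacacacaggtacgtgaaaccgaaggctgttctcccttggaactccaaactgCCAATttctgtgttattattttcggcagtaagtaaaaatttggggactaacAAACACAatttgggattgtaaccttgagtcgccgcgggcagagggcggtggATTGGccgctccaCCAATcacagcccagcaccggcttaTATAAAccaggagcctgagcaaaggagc
H2ac20 (replication-dependent H2A; chr3:96220881-96221130, minus strand): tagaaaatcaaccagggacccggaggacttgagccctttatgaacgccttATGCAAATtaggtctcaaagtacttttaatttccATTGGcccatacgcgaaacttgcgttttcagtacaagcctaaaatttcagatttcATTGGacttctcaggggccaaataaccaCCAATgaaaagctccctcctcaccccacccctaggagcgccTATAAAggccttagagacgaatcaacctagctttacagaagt
H2bc14 (replication-dependent H2B; chr13:21721794-21722043, plus strand): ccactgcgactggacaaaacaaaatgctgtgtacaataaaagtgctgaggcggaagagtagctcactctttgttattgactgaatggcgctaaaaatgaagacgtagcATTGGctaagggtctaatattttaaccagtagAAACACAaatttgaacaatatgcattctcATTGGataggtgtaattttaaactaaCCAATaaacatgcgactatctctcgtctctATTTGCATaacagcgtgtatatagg
H3c3 (replication-dependent H3; chr13:23745522-23745771, minus strand): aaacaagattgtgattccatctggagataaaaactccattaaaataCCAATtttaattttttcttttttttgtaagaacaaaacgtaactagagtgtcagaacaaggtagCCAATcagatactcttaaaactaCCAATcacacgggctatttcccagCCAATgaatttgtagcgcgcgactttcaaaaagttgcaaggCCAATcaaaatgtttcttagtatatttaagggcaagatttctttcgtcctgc
H4c3 (replication-dependent H4; chr13:23698459-23698708, minus strand): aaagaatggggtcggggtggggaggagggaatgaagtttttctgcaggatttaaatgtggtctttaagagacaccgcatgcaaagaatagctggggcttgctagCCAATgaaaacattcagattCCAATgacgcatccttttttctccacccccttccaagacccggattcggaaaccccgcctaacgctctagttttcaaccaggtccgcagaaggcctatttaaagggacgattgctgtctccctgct
H1f0 (variant; chr15:79027962-79028211, plus strand): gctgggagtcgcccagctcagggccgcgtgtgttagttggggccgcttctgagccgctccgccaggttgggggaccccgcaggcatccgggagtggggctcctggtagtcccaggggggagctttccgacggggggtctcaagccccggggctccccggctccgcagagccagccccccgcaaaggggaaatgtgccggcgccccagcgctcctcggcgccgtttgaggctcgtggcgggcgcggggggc

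Which elements the replication-dependent promoters held differed from family to family. CCAAT was present in 35 of 41 genes (85.4%), in all of the H1, H2A and H2B genes, in 7 of 8 H3 genes and in 3 of 8 H4 genes, where 33.8% of all 32851 promoters in the RefSeq table held it. TATAAA was present in 21 of 41 genes (51.2%), and in 12.4% of all promoters. The octamer was found in 5 of 10 H2A genes and 5 of 10 H2B genes and in no H1, H3 or H4 gene of the class, and in 1.6% of all promoters. The H2A and H2B counts are not independent, since windows of neighbouring genes can overlap and both strands were searched. The H2ac20 window, for example, ends at chr3:96221130 and reaches into H2bc21, which begins at 96221072. The same element can thus be counted for both neighbours. AAACACA was found in 4 of 5 H1 genes, in 1 H2A gene and in 1 H2B gene, H2bc14, which made 6 of 41 (14.6%), and in 6.25% of all promoters. Of the 7 variants with an entry 4 held CCAAT, 1 TATAAA, 1 the octamer and 1 AAACACA, the last 3 all in H3 variants. The window of H1f0, which fell most among the variants in RNA, held none of the 4 elements. That of Macroh2a1, the tested variant that rose most in RNA, is not shown and held none of them either. A match describes the letters only.

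In RNA the 5 tested variants did not all move with the replication-dependent genes. Of them 2 were higher (40.0%, where 33.1% of all tested genes were), 2 lower (40.0%, where 27.7% were) and 1 not called. These counts are near the shares of all tested genes. Macroh2a1, which encodes macroH2A1, an H2A variant with a large extra domain known from the inactive X chromosome, had 41.0 and 48.4 RPKM of RNA in the KO-labelled libraries, against 24.0 and 20.8 RPKM in the WT libraries (log2 difference 0.96 ± 0.10 SE, adjusted p = 0.000203). H2az2, which encodes a form of H2A.Z, the variant found beside transcription start sites, had 103 and 99.1 RPKM in the KO-labelled libraries, against 84.2 and 83.5 RPKM in the WT libraries (0.27 ± 0.06, adjusted p = 0.00837). Both rose with no overlap between the groups. H1f0, a linker histone that accumulates in differentiated and resting cells, had 86.5 and 103 RPKM in the KO-labelled libraries, against 281 and 275 RPKM in the WT libraries (-1.55 ± 0.09, adjusted p = 9.98e-06). H3f3b, which encodes H3.3, the H3 variant placed outside replication, had 558 and 477 RPKM in the KO-labelled libraries, against 648 and 622 RPKM in the WT libraries (-0.30 ± 0.09, adjusted p = 0.0265). These 2 genes fell, and H1f0 had the largest fall of any histone tested. The H3f3b call did not hold without WT library 1 (adjusted p = 0.239 in limma), without WT library 2 (0.163) or with the replicate number as a block (0.0504). H2ax, whose protein is phosphorylated around DNA breaks and whose mRNA is made both with a stem-loop and with a tail, had 239 and 185 RPKM in the KO-labelled libraries, against 195 and 197 RPKM in the WT libraries, and the groups overlapped (0.10 ± 0.12, adjusted p = 0.483).

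H2az1 and H3f3a had abundant RNA but too few footprints to be tested. H2az1, the other H2A.Z gene, had 1238 and 955 RPKM of RNA in the KO-labelled libraries, against 600.3 and 617 RPKM in the WT libraries, and only 3 and 0 footprint reads, against 2 and 2. H3f3a, the other H3.3 gene, had 272 and 263 RPKM of RNA in the KO-labelled libraries, against 262 and 254 RPKM in the WT libraries, and 1 and 2 footprint reads, against 2 and 0. The H2az1 RNA was thus apart between the groups, and that of H3f3a nearly level. H1f10, a linker histone variant, had 4.95 and 6.41 RPKM of RNA in the KO-labelled libraries, against 0.172 and 0.181 RPKM in the WT libraries, with 8 and 5 footprint reads, against 2 and 0. Pseudogene copies of H3f3a and H2az1 exist in the genome, and the handling of reads that match them is likewise unstated.

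In footprints 0 of the 41 replication-dependent genes and 0 of the 5 variants passed limma. Of all tested genes 1.06% did (38 higher and 30 lower). Limma-voom on recovered reads also called 0 of the 46, where it called 0.970% of all tested genes. At an unadjusted p under 0.05, 13 replication-dependent genes were lower and 0 higher, and 12.4% of all tested genes were lower. H2bc11 and H2ac15, both among the 13, had enough footprints to be tested only through the WT libraries, where they were higher. The median log2 difference was -0.74 over the 41 genes, 0.04 over the 5 variants and -0.13 over all tested genes. Both KO-labelled libraries lay below both WT libraries for 22 of the 41 genes (53.7%), where 32.1% of all tested genes did so.

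H4c4 carried the most footprints of all histones, at 9449 and 7814 RPKM in the KO-labelled libraries, against 11149 and 12363 RPKM in the WT libraries (log2 difference -0.45 ± 0.29 SE, adjusted p = 0.483). H4c3 had 1138 and 1405 RPKM in the KO-labelled libraries, against 3155 and 3585 RPKM in the WT libraries (-1.41 ± 0.28, adjusted p = 0.114). H4c8 had 1084 and 1322 RPKM in the KO-labelled libraries, against 2053 and 2495 RPKM in the WT libraries (-0.92 ± 0.28, adjusted p = 0.203). In each of the 3 H4 genes the KO-labelled libraries were below the WT libraries without overlap. H2ac7 had 1070.5 and 1534 RPKM in the KO-labelled libraries, against 1781 and 2837 RPKM in the WT libraries (-0.81 ± 0.37, adjusted p = 0.344). H1f3 had 1375 and 2718 RPKM in the KO-labelled libraries, against 2039 and 2289 RPKM in the WT libraries, and H1f5 had 1281 and 2224 RPKM, against 1726 and 2061 RPKM. The groups overlapped in both linker histones, and KO-labelled library 2 was above both WT libraries. With all libraries and 1 RPKM added H2bc11 had the largest difference in footprints, with 29.1 and 28.9 RPKM in the KO-labelled libraries, against 102 and 117 RPKM in the WT libraries (-1.88 ± 0.28, adjusted p = 0.0696). These values rest on 4 and 3 reads, against 34 and 29, and H2bc11 was tested only through the WT libraries.

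Footprint levels of the variants lay on both sides of 0. H3f3b had 263 and 411 RPKM in the KO-labelled libraries, against 499.6 and 583 RPKM in the WT libraries (log2 difference -0.71 ± 0.33 SE, adjusted p = 0.347). H1f0 had 42.5 and 18.8 RPKM in the KO-labelled libraries, against 48.9 and 73.3 RPKM in the WT libraries, from 9 and 3 reads, against 25 and 28. Both were lower without overlap, in the direction of their RNA. H2az2 had 85.8 and 104 RPKM in the KO-labelled libraries, against 41.5 and 31.7 RPKM in the WT libraries (1.36 ± 0.31, adjusted p = 0.147). Macroh2a1 had 505 and 323 RPKM in the KO-labelled libraries, against 269 and 322 RPKM in the WT libraries. H2ax had 314 and 485 RPKM in the KO-labelled libraries, against 361 and 398 RPKM in the WT libraries. H2az2 was apart between the groups and H2ax overlapped. H2az2 had enough footprints to be tested only through the KO-labelled libraries, where it was higher.

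**Figure D3:**
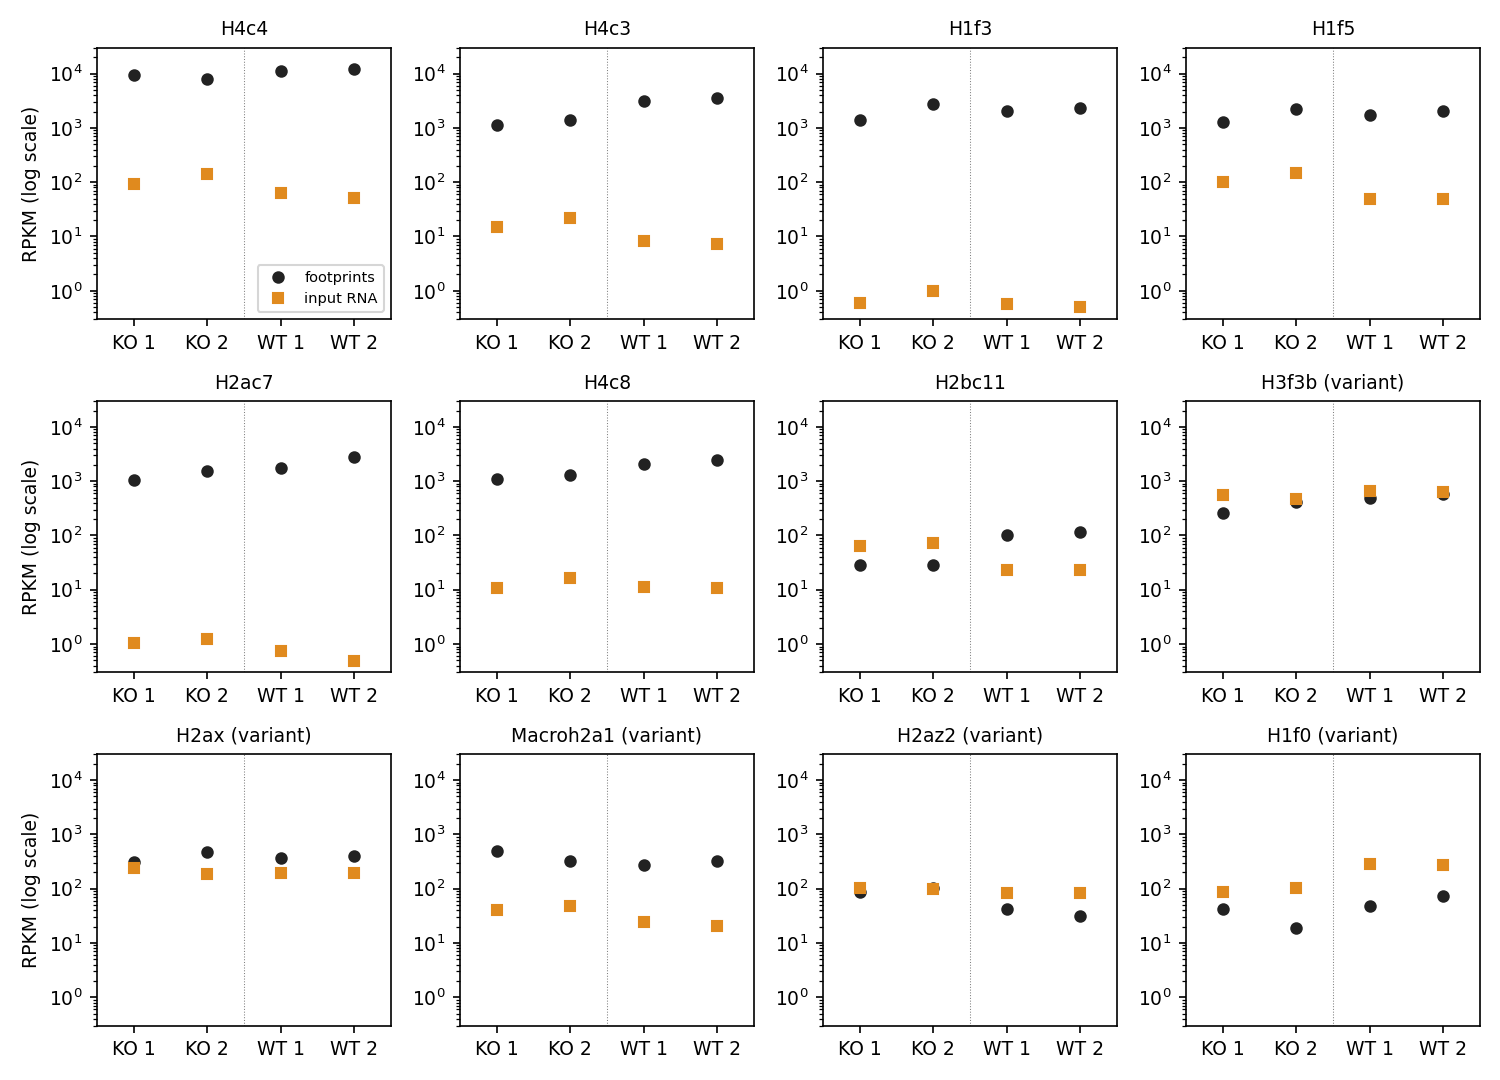
Footprints (black circles) and input RNA (orange squares) in RPKM on a log axis in each library, for the 6 replication-dependent genes with the most footprints, H2bc11, and the 5 tested variants. Footprints exceed RNA by far in the first 6 genes in all libraries, and in H2bc11 they lie below RNA in the KO-labelled libraries and above it in the WT libraries.

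The footprint difference depended on the library. KO-labelled library 2 was above KO-labelled library 1 in 34 of the 41 genes, with a median log2 difference of 0.53, and WT library 2 was above WT library 1 in 35 of them, with a median of 0.32. Over all tested genes the same medians were 0.22 and 0.08. Without KO-labelled library 2 the class median was -1.04 and 12 histone genes passed (26.1% of the 46 tested, where 17.0% of all genes did), and without KO-labelled library 1 the median was -0.22 and 1 gene, H2bc11, passed (2.17% of the 46, where 5.18% of all genes did). Without WT library 2 the median was -0.48.

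**Figure D4:**
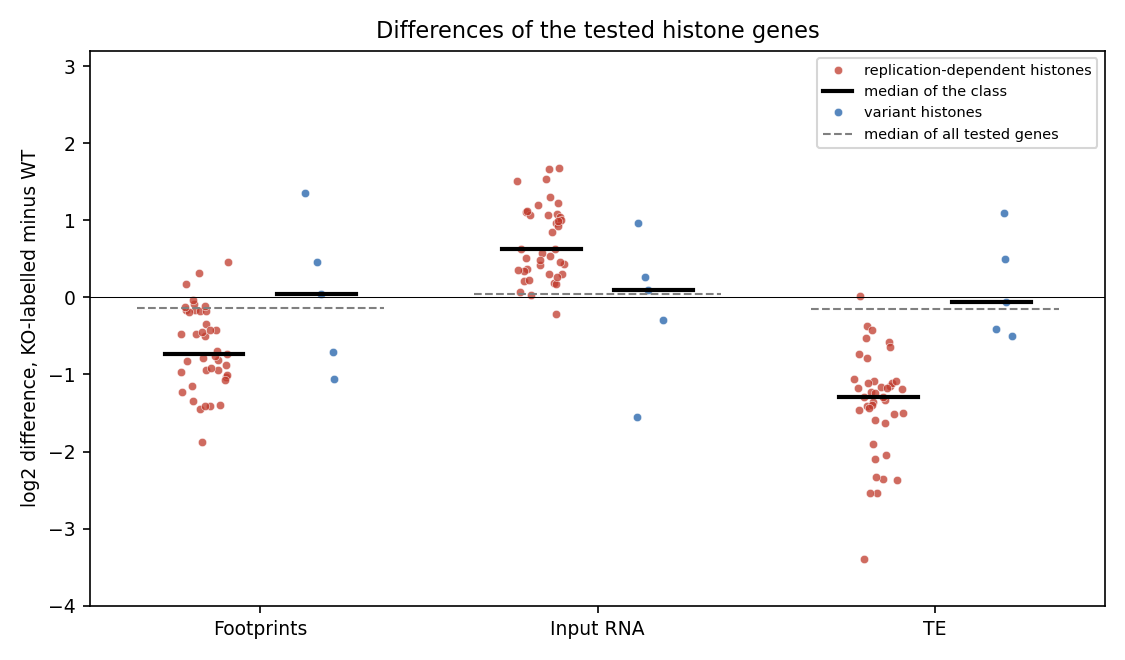
Log2 difference, KO-labelled minus WT, of each tested replication-dependent histone (red, 41 genes) and variant (blue, 5 genes) in footprints, input RNA and TE, with black bars at the class medians and dashed lines at the median of all tested genes. Replication-dependent genes lie mostly below 0 in footprints, above 0 in RNA and below 0 in TE, with class medians of -0.74, 0.63 and -1.30.

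Footprints per RNA were lower in the KO-labelled libraries for nearly all tested replication-dependent genes, though no tested gene of any kind passed. The median log2 difference in TE was -1.30 over the 41 genes, -0.06 over the 5 variants and -0.15 over all tested genes, and 40 of the 41 were below 0, where 59.6% of all tested genes were. In limma 0 of the 46 histones and 0% of all tested genes were called. At an unadjusted p under 0.05, 28 of the 41 genes (68.3%) were lower and 0 higher, where 9.98% of all tested genes were lower. H2bc11 and H2ac15, tested only through their WT footprints, are among the 28. For 34 of the 41 genes (82.9%) both KO-labelled libraries lay below both WT libraries, where 32.3% of all tested genes did. The class TE, as summed footprints over summed RNA, was 26.9 and 25.2 in the KO-labelled libraries, against 65.8 and 85.7 in the WT libraries. That of the variants was 0.502 and 0.652 in the KO-labelled libraries, against 0.590 and 0.684 in the WT libraries, and overlapped. The variant ratio depends strongly on H2az1, which had at most 3 footprint reads in a library. Its RNA was 1238 and 955 RPKM in the KO-labelled libraries, against 600.3 and 617 RPKM in the WT libraries.

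The lower class TE was seen in each family. H4 had 108 and 66.3 in the KO-labelled libraries, against 227 and 309 in the WT libraries. H3 had 56.2 and 89.5 in the KO-labelled libraries, against 171 and 221 in the WT libraries. H2A had 10.0 and 9.80 in the KO-labelled libraries, against 25.5 and 38.4 in the WT libraries. The order of the families, with H4 and H3 above the others in the WT libraries, spans more than the difference between the groups. H1 had 22.1 and 28.0 in the KO-labelled libraries, against 54.8 and 71.5 in the WT libraries. H2B had 13.2 and 17.3 in the KO-labelled libraries, against 28.1 and 30.8 in the WT libraries. In none of the 5 families did the groups overlap.

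H2bc11 again had the largest difference, with a TE of 0.454 and 0.413 in the KO-labelled libraries, against 4.24 and 4.87 in the WT libraries (log2 difference -3.39 ± 0.33 SE, unadjusted p = 0.000154, adjusted p = 0.110 in limma). It was tested only through its WT footprints, so its place at the top is not support for a difference. H4c3 had a TE of 72.2 and 61.6 in the KO-labelled libraries, against 347 and 431 in the WT libraries (-2.54 ± 0.34, adjusted p = 0.198). H3c2 had a TE of 74.2 and 52.7 in the KO-labelled libraries, against 373 and 356 in the WT libraries (-2.54 ± 0.35, adjusted p = 0.225). In H4c3 and H3c2 the replicates of a group were close and the groups far apart. That of H3c2 rests on 25 and 47 input reads in the KO-labelled libraries, against 10 and 9 in the WT libraries. Its WT RNA, at 0.843 and 0.799 RPKM, was below the 1 RPKM added, so close replicates are no sign of precision there. The TE of H2bc11 rests on 4 and 3 footprint reads in the KO-labelled libraries, so the closeness of its replicates there is no sign of precision. H4c4 had a TE of 103 and 54.0 in the KO-labelled libraries, against 174 and 234 in the WT libraries (-1.44 ± 0.45, adjusted p = 0.329). H1f5 had a TE of 12.5 and 14.9 in the KO-labelled libraries, against 34.8 and 40.4 in the WT libraries (-1.46 ± 0.32, adjusted p = 0.290). H2bc9 was the single replication-dependent gene above 0, with a TE of 235 and 429 in the KO-labelled libraries, against 319 and 311 in the WT libraries, and the groups overlapped. Of the variants, H3f3b had a TE of 0.472 and 0.863 in the KO-labelled libraries, against 0.771 and 0.937 in the WT libraries, and H2az2, the variant with the largest TE difference, had 0.833 and 1.05, against 0.499 and 0.388 (1.09 ± 0.40, adjusted p = 0.368). Without KO-labelled library 2, 10 histones passed in TE, all lower, where 11% of all genes passed, and without KO-labelled library 1, 3 did, where 2.33% of all genes passed.

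RNA above 0 with footprints below 0 was the usual combination in the replication-dependent class. It held for 37 of the 41 genes (90.2%), where 24.5% of all tested genes showed it. The exceptions were H2bc9, H2bc14 and H2bc15, above 0 in both, and H2bc8, below 0 in both. All 4 exceptions were H2B genes. Genes with more RNA gave the same picture, since the 29 with at least 1 RPKM in every library had medians of -0.69 in footprints, 0.98 in RNA and -1.33 in TE, and the other 12 had -0.79, 0.36 and -1.23.

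**Figure D5:**
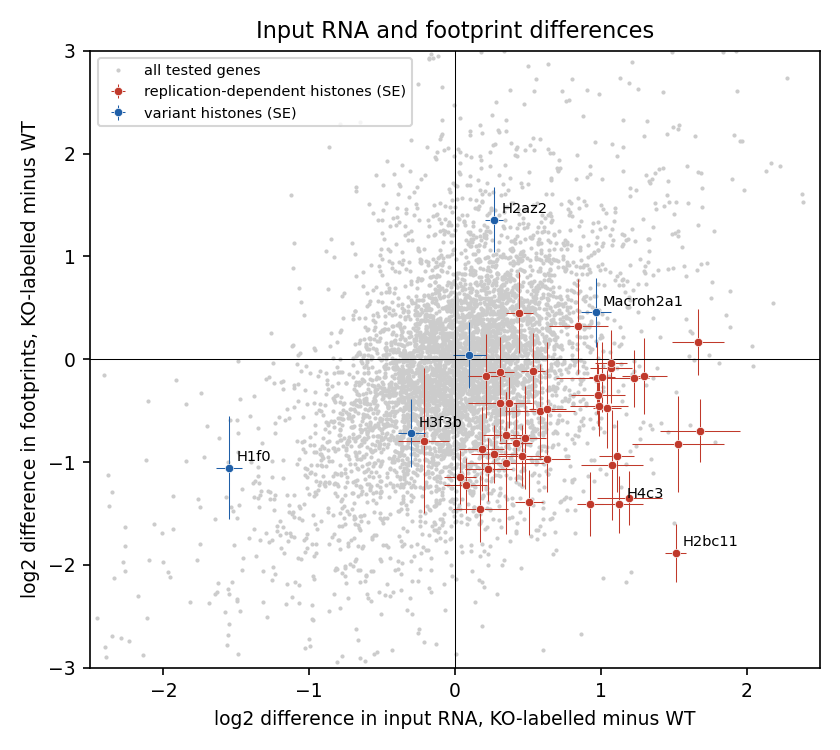
Log2 difference in footprints (y axis) against that in input RNA (x axis), KO-labelled minus WT, for replication-dependent histones (red) and variants (blue) with standard errors from limma, over all tested genes (grey; genes beyond the axes are not drawn). Of the 41 replication-dependent genes 37 lie at the lower right, and the variants lie at the upper right and lower left.

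Of the 10 histones not tested, 7 were replication-dependent. H2ac14 and H2ac5-ps, both listed as pseudogenes in RefSeq, and H3c15 had no footprint read in any library. H2bc12 had 5 and 2 footprint reads in the KO-labelled libraries, against 6 and 8 in the WT libraries, and H2bc13 had 2 and 5, against 0 and 6. H2bc21 had 0 and 0 footprint reads in the KO-labelled libraries, against 4 and 2 in the WT libraries, and H4c9 had 0 and 1, against 9 and 10. These counts are too low to compare at the depth of the KO-labelled libraries. RNA of these 7 genes was between 0.173 and 49.0 RPKM over the 4 libraries, with H2ac14 in KO-labelled library 2 the highest.

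Genes that act on histone mRNA and protein passed the test in part in RNA and not at all in footprints. Of 15 tested genes for histone mRNA expression and 3′ processing, 5 rose and 3 fell in RNA (33.3% and 20%, where 33.1% of all tested genes rose and 27.7% fell). The median log2 difference was 0.17, and 0 passed in footprints or TE, where 1.06% and 0% of all tested genes did. Slbp, whose protein binds the stem-loop of replication-dependent mRNAs and is needed for their processing and translation, had 77.9 and 67.5 RPKM of RNA in the KO-labelled libraries, against 46.2 and 48.4 RPKM in the WT libraries (0.61 ± 0.08 SE, adjusted p = 0.000674). Its footprints were 176 and 204 RPKM in the KO-labelled libraries, against 206 and 208 RPKM in the WT libraries (-0.13 ± 0.26, adjusted p = 0.821). Slbp thus rose in RNA, and its footprints differed by less than their standard error. Cstf2t, a form of a cleavage stimulation factor subunit, had the largest called difference of the list and fell, with 11.5 and 9.69 RPKM of RNA in the KO-labelled libraries, against 19.4 and 18.7 RPKM in the WT libraries (-0.79 ± 0.09, adjusted p = 0.000326). Its footprints were 26.1 and 40.4 RPKM in the KO-labelled libraries, against 189 and 66.7 RPKM in the WT libraries (-1.76 ± 0.59, adjusted p = 0.231). Of 25 tested histone chaperones and deposition factors, 11 rose (44.0%, where 33.1% of all tested genes did) and 1 fell (where 27.7% did) in RNA, and 0 passed in footprints or TE, where 1.06% and 0% of all tested genes did. Asf1a, a chaperone of H3 and H4, rose most, with 34.1 and 30.8 RPKM in the KO-labelled libraries, against 12.5 and 12.1 RPKM in the WT libraries (1.33 ± 0.08, adjusted p = 9.98e-06). Npm1, a nucleolar histone chaperone, had 190 and 209 RPKM in the KO-labelled libraries, against 119.5 and 118 RPKM in the WT libraries (0.74 ± 0.07, adjusted p = 0.000128), and Nasp, another H3 and H4 chaperone, had 17.2 and 17.4 RPKM, against 9.98 and 10.1 RPKM (0.73 ± 0.07, adjusted p = 0.000133).

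The genes listed for DNA replication and S phase, with some markers of cycling cells among them, rose in RNA for the most part and had other values in footprints. Of 23 tested, 16 rose (69.6%) and 0 fell in RNA, where 33.1% of all tested genes rose and 27.7% fell. The median log2 difference was 0.38, and 0 passed in footprints or TE, where 1.06% and 0% of all tested genes did. Their median in footprints was 0.24, against -0.74 for the replication-dependent histones, and their median in TE was -0.01, against -1.30. The difference between the 2 lists was not tested. Mki67, a marker of cycling cells, had 22.9 and 32.1 RPKM of RNA in the KO-labelled libraries, against 12.9 and 11.4 RPKM in the WT libraries (1.10 ± 0.15 SE, adjusted p = 0.000616). Tk1, a thymidine kinase that supplies DNA precursors, had 23.6 and 22.4 RPKM of RNA in the KO-labelled libraries, against 12.8 and 12.4 RPKM in the WT libraries (0.82 ± 0.07, adjusted p = 8.12e-05). Pcna, the sliding clamp of the replication fork, had 97.6 and 101 RPKM of RNA in the KO-labelled libraries, against 58.3 and 60.9 RPKM in the WT libraries (0.73 ± 0.06, adjusted p = 8.28e-05).

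Cell type markers moved between the groups as well. Summed RNA of 5 mature myeloid markers was 8336 and 7278 RPKM in the KO-labelled libraries, against 14631 and 14484 RPKM in the WT libraries, with 4 of 5 called lower, where 27.7% of all tested genes were. Summed RNA of 6 stem and progenitor markers was 159 and 154 RPKM in the KO-labelled libraries, against 84.6 and 84.3 RPKM in the WT libraries, with 4 of 6 called higher, where 33.1% of all tested genes were. Summed RNA of the 4 mast cell and basophil markers in the table was 251 and 239.7 RPKM in the KO-labelled libraries, against 12.2 and 13.4 RPKM in the WT libraries. Most of it came from Cpa3, at 221 and 213 RPKM, against 0.758 and 0.835 RPKM. Gata2 and Hdc were also higher in both KO-labelled libraries. Ms4a2 overlapped, at 0.270 and 0.522 RPKM, against 0.335 and 0.509 RPKM. That of 4 T and NK markers was 433 and 364 RPKM, against 17.4 and 16.3 RPKM, nearly all of it from Nkg7, a gene of cytotoxic granules, at 426 and 356 RPKM, against 15.0 and 14.6 RPKM. The T cell receptor complex genes Cd3e and Cd3g were at 0.0513 to 0.628 RPKM over the 4 libraries. Summed RNA of 2 haemoglobin genes, markers of red cells, was 299 and 363 RPKM in the KO-labelled libraries, against 61.9 and 53.1 RPKM in the WT libraries. Another erythroid marker went the other way, at 0.495 and 0.536 RPKM in the KO-labelled libraries, against 0.648 and 0.682 RPKM in the WT libraries. Summed RNA of 2 stroma and endothelium markers was 23.5 and 26.6 RPKM in the KO-labelled libraries, against 1.19 and 1.36 RPKM in the WT libraries, and that of 1 B cell marker 3.09 and 3.71 RPKM, against 1.76 and 1.44 RPKM. The part of these shifts in the histone differences was not tested.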

How the data were processed

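Footprint and input RNA levels of histone genes were taken from a table of 16442 genes in 4 libraries. The authors deposited footprint values that behave as RPKM with 1 added, a unit read from the values, and, per the file headers, translational efficiencies, each a ratio of footprint to input RNA values. The tools in the submitters' processing notes are HISAT2 2.1.0, featureCounts, CASAVA and DESeq2, without their roles. The same notes list hg38, a human build, although samples and symbols are mouse. Coordinates are therefore those of RefSeq GRCm38.p6, matched by symbol for all 56 members.

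RNA was computed as the footprint value over TE, less 1. The steps between RPKM values gave back whole reads (within 0.004 reads) for every one of 10536 genes seen in 2 or more libraries, and input reads for 53 of the 56 histones. For 456 of these genes the footprint reads were multiplied so that the coding length became whole. For 4 replication-dependent histones they were doubled so that the length matched the commonest of the family, which is an assumption. On simulated data 94.8% of 10195 genes came back exactly and 5.18% too small by a common factor. The tests ran on 6390 genes, 46 of them histones, that had a CPM of recovered reads of 20 or more in 2 or more libraries. H2bc11 and H2ac15 met this in the WT libraries alone, and H2az2 in the KO-labelled libraries alone. Differences are KO-labelled minus WT on log2(RPKM + 1), and for TE on log2, from limma 3.58.1 (R 4.3.3; lmFit and eBayes with a trend, two-sided, Benjamini-Hochberg over all tested genes, threshold 0.05). Class medians have no test. The authors' deposited p-values were not used.

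The members and gene lists were chosen with earlier results of these data known. Values in every library are given for each histone called in any readout, for the 6 replication-dependent genes and 4 variants with the most footprints and for the named variants. From the other lists at most 4 called genes, by size of difference, are named. H2bc11, H2bc9 and the genes at the ends of a range were singled out after their values were seen. Motif letters are those known from histone promoters. Alternatives covered filters, pseudocounts, centring, the replicate block, limma-voom and leaving out each library. 1 erythroid marker is not reported here.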

Additional observations from a re-analysis of the deposited data

How the results depend on the processing

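Leaving out a library changed both counts and medians. The number of histones called ran from 0 to 12 in footprints over these fits (0% to 17.0% of all genes), from 0 to 10 in TE (0% to 11%) and from 26 to 37 in RNA (42.0% to 61.3%), against 33 in RNA with all libraries (60.8%). The replication-dependent median ran from -1.04 to -0.22 in footprints, from 0.568 to 0.773 in RNA and from -1.56 to -1.19 in TE. That of the variants ran from -0.272 to 0.136 in footprints, from -0.084 to 0.282 in RNA and from -0.122 to 0.022 in TE, and so changed sign in all 3. With no filter, or a filter at a CPM of 5, the variant medians were 0.249 in footprints, 0.183 in RNA and 0.218 in TE, the last reversed, because more variants entered. Centring each library on its median gave the variants 0.115 in RNA and 0.078 in TE, also reversed. The replication-dependent RNA median was 0.408 with 5 RPKM added and 0.925 with 0.1 added, and with genes of at least 1 RPKM of RNA it was 0.89 and that of the variants 0.183; the last 2 settings were chosen after seeing the data. With the replicate number as a block, 31 histones passed in RNA, where 54.4% of all tested genes did. In footprints 0 passed with the block, where 0.501% of all tested genes did, and in TE 0 passed. The deviations of same-numbered libraries correlated at 0.0226 in footprints and -0.335 in RNA, which does not show that the numbers pair the libraries. The fit without a trend and limma-voom also called 0 in footprints, where they called 1.14% and 0.970% of all tested genes. No histone called in RNA reversed its sign under any setting. H3c7, H3c10, H4c1, H2ac12, H2ac7, H2bc6, H2az2 and H3f3b each lost the RNA call under at least 1 setting. Leaving out a library leaves 1 library in a group, which is then assumed to vary like the others. The cause of these shifts was not tested. Footprint depth limits the comparison, since the KO-labelled libraries were up to 3.2-fold shallower and several histones there rest on fewer than 20 reads.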

Other observations

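The table held 18 further histone symbols outside the rule, 9 of them with footprints. H2aw had a TE of 77.3 and 151 in the KO-labelled libraries, against 93.2 and 108 in the WT libraries, which overlapped. Hist1h2an had a TE of 29.5 and 25.3 in the KO-labelled libraries, against 56.4 and 132 in the WT libraries, and its RNA rose (log2 difference 0.99 ± 0.23 SE, adjusted p = 0.00715 in limma). Hist1h4m rose in RNA as well (1.01 ± 0.18, adjusted p = 0.0027), with footprints of 258 and 236 RPKM in the KO-labelled libraries, against 84.8 and 197 RPKM in the WT libraries, and a TE of 25.1 and 15.1, against 14.4 and 29.4, which overlapped. Hist1h4n, not tested, had footprints of 53.3 and 70.8 RPKM in the KO-labelled libraries, against 25.8 and 49.3 RPKM in the WT libraries. Footprints of these 2 H4 symbols thus lay above the WT libraries in both KO-labelled libraries. Cenpa, the H3 variant of the centromere, had 46.7 and 40.8 RPKM of RNA in the KO-labelled libraries, against 31.7 and 34.6 RPKM in the WT libraries (0.39 ± 0.09, adjusted p = 0.00641), with footprints of 44.3 and 58.8 RPKM, against 58.8 and 41.8 RPKM. Macroh2a2, which encodes the second macroH2A protein, had 15.6 and 13.1 RPKM of RNA in the KO-labelled libraries, against 1.49 and 1.19 RPKM in the WT libraries, and too few footprints to be tested. H2bu2 had 14.1 and 15.9 RPKM of RNA in the KO-labelled libraries, against 0.341 and 0.448 RPKM in the WT libraries, and was not tested either. Hist1h2ao and Hist1h2ap were listed with 48.2 to 170 RPKM of RNA and with 0 footprints in every library.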
